A study of Homo sapiens with 8 samples.

Results

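The HOX cluster genes were examined in RD18, a human fusion-negative rhabdomyosarcoma cell line, meaning a tumour line with muscle features that lacks the PAX-FOXO1 fusion gene. Members were all gene symbols made of HOXA, HOXB, HOXC or HOXD followed only by digits, and 36 of the 22808 symbols in the count table met this rule: 10 in HOXA, 9 in HOXB, 9 in HOXC and 8 in HOXD. The vehicle group was treated with lipofectamine, a transfection reagent, and the miRNA group received the microRNAs miR-449a and miR-340-5p. Both groups are RD18 cells taken at 60 h, with 4 libraries each. The labels name no control RNA for the vehicle cells, and without one the effect of the microRNA pair and that of any transfected RNA cannot be told apart. Whether the 4 libraries of a group stem from different cultures is not labelled, and the spread behind the p-values may thus be technical.

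HOX genes encode homeodomain transcription factors that set position along the body axis. They sit in 4 clusters, and a gene's number gives its paralog position: low numbers lie at the 3′ end of a cluster and are used toward the head, and high numbers lie at the 5′ end and are used toward the tail and in the distal limb. HOX proteins bind DNA with the TALE-class partners PBX, MEIS and PKNOX. Polycomb complexes keep unused HOX genes silent, trithorax and MLL complexes keep used ones active, and retinoic acid switches on genes of the 3′ end in the embryo.

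The mature microRNAs are shown because their seeds, bases 2 to 8 in capitals, define the sites looked for in HOX transcripts (RefSeq, GRCh38.p14).
miR-449a: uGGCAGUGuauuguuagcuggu
miR-340-5p: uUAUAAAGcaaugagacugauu
The seed of miR-449a pairs with the word CACTGCC and that of miR-340-5p with CTTTATA, and both were searched on the transcript strand of the longest 3′ UTR of each gene in GENCODE 29. All 36 members had such a UTR. The miR-449a word was found in 4 of the 36 (11.1%) and the miR-340-5p word in 7 (19.4%), against 19.9% and 20.1% of 10556 tested genes with a UTR. These 36 include untested members. Of the 25 tested members, 3 held the miR-449a word, a share below the 19.9%. The miR-340-5p word was in 6 of the 25, a share above the 20.1%. HOX UTRs were shorter, with a median of 863.5 bases (1083 in the 25 tested members) against 1716.5, so these shares are not like for like. A match is a description of the sequence and not evidence of binding.

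The sites of 5 members are printed, 5′ to 3′ on the transcript strand with the word in capitals, because these members passed the test or lay close to it. HOXD8 was the only member with the same word at more than 1 place.
HOXD8 for miR-340-5p, chr2:176132035-176132064: tctgcagaataCTTTATAttatttgattac
HOXD8 for miR-340-5p, chr2:176132085-176132114: tttattctttcCTTTATAatgaatagttcg
HOXB4 for miR-340-5p, chr17:48576576-48576605: cctcccccacaCTTTATAtacgaataaacg
HOXA5 for miR-340-5p, chr7:27141247-27141276: tccctgcgtgcCTTTATAggaccctttgca
HOXA10 for miR-340-5p, chr7:27170855-27170884: gtttggatttcCTTTATActgtgaagttac
HOXD9 for miR-449a, chr2:176124547-176124576: ctcacccccagCACTGCCcaaacaggggcc
The HOXA and HOXB sites are on the minus strand and the HOXD sites on the plus strand (GRCh38). HOXB2 (miR-340-5p), HOXC13 (miR-449a), HOXC12 and HOXA13 (both words each) were the other members with a site.

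The libraries held 2567737 to 5569342 counts. Muscle identity was checked first: all 13 listed skeletal muscle markers were in the table, and their summed level was 2406 to 2639 CPM (counts scaled to a common library size after TMM normalization) in vehicle and 1690 to 1836 CPM in miRNA libraries. MYOD1, the lineage's master regulator, was at 204 ± 21.7 and 108 ± 3.72 CPM (SD, n = 4), the muscle filament gene DES at 108 ± 10.6 and 67.7 ± 7.14, and the differentiation factor MYOG at 10.4 ± 1.89 and 0.646 ± 0.372. Of 12 tested muscle markers 10 fell and 2 rose in edgeR, the latter being the troponin gene TNNT1 (1.37-fold, adjusted p = 1.22e-10) and the progenitor factor PAX3 (1.66-fold, adjusted p = 0.00309). Over all tested genes 34% fell and 33.4% rose. Summed markers of other cell types were 1.26 to 3.01 (vehicle) and 1.93 to 2.73 CPM (miRNA) for leukocytes (5 of 6 in the table), and 0.777 to 3.37 and 0.341 to 1.61 CPM for endothelium (3 of 5). Epithelial markers (5 of 6) summed to 38.6 to 49.7 and 71.9 to 83.3 CPM, neuronal markers (3 of 6) to 6.69 to 10.6 and 12.4 to 17.4 CPM, and fibroblast markers (4 of 6) to 105 to 120 and 159 to 188 CPM. All 3 tested epithelial markers rose, and most of that sum came from a marker with a mean of 53.5 CPM over all libraries. CDH1 had 0 counts in vehicle and 4 in miRNA libraries, and EPCAM 1 and 21. The fibroblast sum was mostly COL1A1, at 97.6 ± 5.66 and 168 ± 11.5 CPM (SD, n = 4), while LUM fell 23.3-fold (edgeR adjusted p = 6.47e-12), DCN went from 49 to 10 counts and COL1A2 did not pass (adjusted p = 0.592). TNNT1, PAX3, CDH1, EPCAM and DCN were named after their values were seen. No marker in the table was at 0 in all libraries. Their part in the HOX results was not tested, and in such bulk samples fewer cells of a type and less RNA per cell cannot be told apart.

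Of the 36 members, 25 passed the count filter and 11 did not. Among the 25, 9 rose, 6 fell and 10 did not pass the edgeR quasi-likelihood test at an adjusted p under 0.05. This is 60.0% called, near the background of 67.3% over all 12366 tested genes (33.4% higher and 34% lower) and of 65.1% over the 9199 genes within the CPM range of these members. The median log2 fold change of the 25 was 0.058, against -0.00067 over all tested genes, and the values ran from -1.51 (HOXD13) to 1.92 (HOXB9). Library size as the only scaling moved the median of all tested genes by 0.14, so directions here are relative to TMM scaling. At least 2-fold changes were seen in 4 of 25, HOXA5, HOXA9, HOXB9 and HOXD13, against 25.6% of tested genes. The 2 groups of libraries were fully separate for 13 of 25 members, 8 with the miRNA libraries higher and 5 lower, against 58.9% of tested genes.

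**Figure D1:**
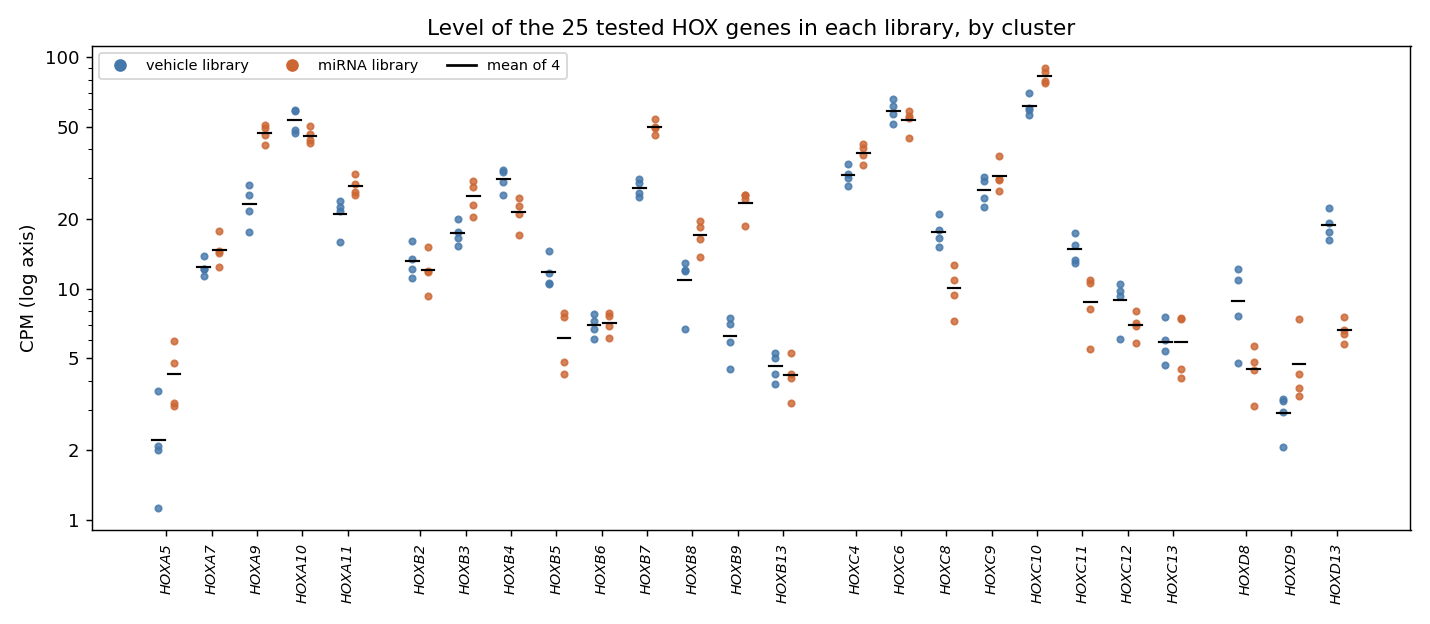
Level of each of the 25 tested HOX genes, in CPM on a log axis, grouped by cluster. Points are single libraries (4 vehicle, 4 miRNA) and bars are group means; HOXB9 and HOXA9 sit higher and HOXD13 lower in every miRNA library, while HOXC6 and HOXB6 overlap.

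Taken as sums over all members, the clusters differed in direction. HOXB summed to 120, 129, 128 and 136 CPM in the vehicle libraries and 164, 164, 179 and 157 CPM in the miRNA libraries, a ratio of 1.30. HOXA summed to 124, 128, 99.9 and 121 CPM and then 147, 147, 136 and 145 CPM, a ratio of 1.21. Neither pair of groups overlapped. HOXC, the most abundant cluster, summed to 225 ± 11.7 CPM in vehicle and 238 ± 8.81 CPM in miRNA libraries (SD, n = 4), and its groups overlapped. HOXD, the least abundant, was lower in every miRNA library, going from 38.1, 31.1, 28.97 and 34.2 CPM to 17.4, 18.8, 18.9 and 22.2 CPM, a ratio of 0.584. Its share of all HOX counts went from 6.56 ± 0.839% to 3.41 ± 0.425%, and that of HOXB from 25.4 ± 1.30% to 29.3 ± 1.31%. These sums are descriptions with no test, and a few genes made up much of each difference in HOXA, HOXB and HOXD. Mean CPM went from 23.2 to 47.1 for HOXA9, 27.3 to 49.9 for HOXB7 and 6.22 to 23.5 for HOXB9. For HOXD13 it went from 18.9 to 6.60. Some other members went against their cluster: HOXB4 and HOXB5 fell, and HOXA10 was lower and HOXD9 higher without passing the test.

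**Figure D2:**
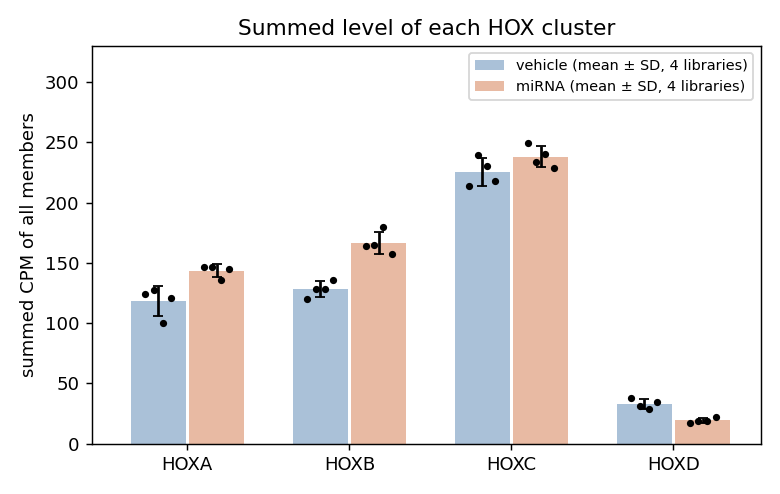
Summed CPM of all members of each cluster, with bars for the mean of 4 libraries, error bars for the SD and points for single libraries. The groups do not overlap for HOXA, HOXB and HOXD, and HOXD is lower in the miRNA libraries, at 0.584 of its vehicle level.

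In the HOXA cluster (chromosome 7, 27100354 to 27200106, minus strand), 5 of 10 members were tested, 3 rose and 2 did not pass. None of these 5 was lower in the edgeR test, also at an unadjusted p under 0.05, or by DESeq2 or limma-voom. HOXA9, a posterior gene known for its role in myeloid leukaemia, measured 21.8, 25.4, 17.5 and 28.1 CPM in the vehicle libraries and 46.2, 49.3, 42.0 and 50.9 CPM in the miRNA libraries. Every miRNA library was above every vehicle library. The rise was 2.03-fold (log2 fold change 1.02, SE 0.13, edgeR adjusted p = 2.70e-10). Of the HOXA9 exon bases, 13.9% are covered by the antisense gene HOXA10-AS and 13.1% by AC004080.3 on the same strand, so reads may be mixed. The same holds for HOXA10, where these genes cover 16.4% and 9.93% of the exon bases. HOXA11, which acts in forearm and reproductive tract development, measured 23.8, 21.7, 15.9 and 22.6 CPM and then 28.2, 25.4, 31.3 and 26.1 CPM. The groups did not overlap, and vehicle replicate 3 was the lowest library. HOXA11 rose 1.33-fold (edgeR adjusted p = 0.00977), and without vehicle replicate 3 it did not pass (log2 fold change 0.28, adjusted p = 0.101).

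HOXA5, which acts in lung development, was near the lower limit of the counts: the vehicle libraries held 5, 14, 5 and 8 counts, the miRNA libraries 27, 35, 9 and 10. In CPM these were 2.09, 3.62, 1.12 and 2.01 against 4.79, 5.97, 3.10 and 3.22, and vehicle replicate 2 lay above 2 of the miRNA libraries. It rose 2.04-fold (edgeR adjusted p = 0.0120), a call lost without vehicle replicate 3 (adjusted p = 0.0859) or miRNA replicate 2 (0.0842). Its UTR holds the miR-340-5p word printed above. HOXA10, the neighbour of HOXA9 and a regulator of uterine patterning, measured 58.6, 59.0, 47.2 and 48.7 CPM and then 50.4, 46.6, 44.1 and 42.5 CPM. These groups overlapped and the difference did not pass (log2 fold change -0.19, SE 0.10, edgeR adjusted p = 0.0955), although it passed as lower without vehicle replicate 3 (0.0432). HOXA7, at 12.4 ± 1.03 and 14.7 ± 2.21 CPM (SD, n = 4), did not pass (adjusted p = 0.231), and 62.5% of its exon bases are covered by the antisense gene HOXA-AS3 on the other strand.

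The 5 HOXA members below the filter held few counts. HOXA3, which patterns the pharyngeal arches, reached 2, 11, 15 and 13 counts in vehicle and 8, 8, 2 and 5 in miRNA libraries. In CPM it was at 2.58 ± 1.18 and 1.27 ± 0.402 (SD, n = 4). It was tested only under other filters or with a library left out, and passed as lower in 3 of 7 such fits: the filter of 1 CPM in 4 samples (log2 fold change -1.05, adjusted p = 0.0464), without vehicle replicate 1 (-1.26, 0.0115) and without miRNA replicate 4 (-1.13, 0.0418). Totals over the groups of 4 were 16 and 10 counts for HOXA4, 27 and 28 for HOXA13, the hand and foot gene, 3 and 7 for HOXA6 and 2 and 1 for HOXA2. None of these 4 passed when tested without a count filter, and differences were not detectable at this depth.

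All 9 members of the HOXB cluster (chromosome 17, 48540894 to 48729178, minus strand) were tested, and 4 rose, 2 fell and 3 did not pass. HOXB9, a thoracic-level gene, had the largest rise among the members. It measured 5.86, 7.51, 4.49 and 7.03 CPM in vehicle and 24.3, 25.4, 25.5 and 18.7 CPM in miRNA libraries, so its lowest miRNA value was more than its highest vehicle value. The rise was 3.797-fold (log2 fold change 1.92, SE 0.19, edgeR adjusted p = 2.27e-13). HOXB7, the most abundant HOXB gene here, measured 25.9, 29.8, 28.5 and 24.9 CPM and then 46.2, 49.5, 54.1 and 49.9 CPM. Again no library overlapped, and the rise was 1.81-fold (SE 0.11 on the log2 scale, adjusted p = 2.44e-09). HOXB8, which is known for its action in blood progenitors and in the nervous system, measured 6.69, 12.9, 11.9 and 12.1 CPM and then 18.5, 13.6, 19.6 and 16.4 CPM. It rose 1.497-fold without overlap (edgeR adjusted p = 0.00508).

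On the other side of this run of rising genes, HOXB5 and HOXB4 fell. HOXB5, which acts in enteric and vascular development, measured 10.5, 10.6, 11.7 and 14.6 CPM in vehicle and 4.26, 7.85, 7.57 and 4.83 CPM in miRNA libraries. The groups did not overlap, and the level was 1.95-fold lower (log2 fold change -0.96, SE 0.23, edgeR adjusted p = 2.55e-04). HOXB4, known for expanding blood stem cells when overexpressed, measured 25.5, 28.998, 31.9 and 32.7 CPM and then 20.9, 22.7, 24.8 and 17.1 CPM. Every miRNA library was below every vehicle library, by 1.40-fold on the fitted scale (adjusted p = 0.00151), and the HOXB4 UTR holds the miR-340-5p word printed above. HOXB5 holds neither word.

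HOXB3, a hindbrain gene whose annotated transcripts share exons with HOXB4 and HOXB6, measured 20.1, 16.6, 17.5 and 15.3 CPM and then 22.9, 20.5, 27.5 and 29.3 CPM. It rose 1.43-fold without overlap (edgeR adjusted p = 0.00270). HOXB6 lies between the falling and the rising genes and measured 6.95 ± 0.740 and 7.12 ± 0.786 CPM (SD, n = 4), with a log2 fold change of 0.058 (SE 0.24, adjusted p = 0.844). In GENCODE 29, HOXB6 shares 16.6% of its exon bases with HOXB3 on the same strand, so reads of these 2 genes may be split or dropped in counting. HOXB2, at 13.2 ± 2.14 and 12.02 ± 2.37 CPM (adjusted p = 0.658), and the prostate and distal gut gene HOXB13, at 4.61 ± 0.647 and 4.22 ± 0.847 CPM (adjusted p = 0.835), did not pass. Their log2 fold changes of -0.099 (SE 0.19) and -0.077 (SE 0.30) changed sign with library size as the only scaling.

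**Figure D3:**
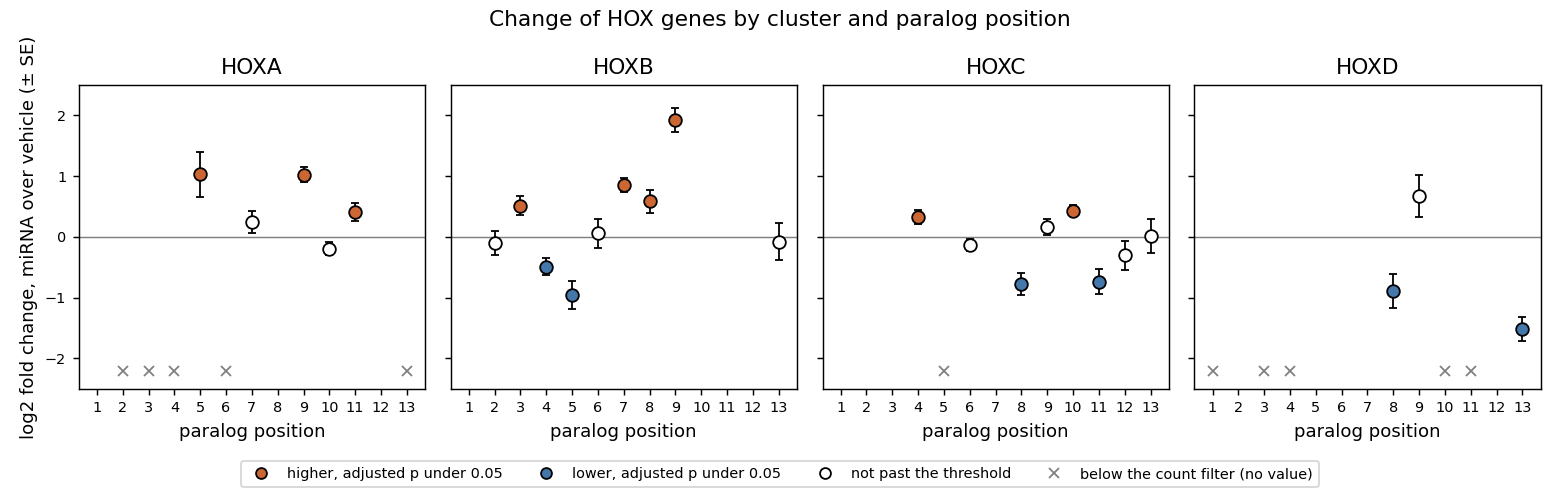
log2 fold change (miRNA over vehicle, ± SE from edgeR) of each tested HOX gene against its paralog position, 1 panel per cluster; filled points passed an adjusted p under 0.05 and crosses mark members below the count filter. In HOXB, positions 4 and 5 lie below 0 and positions 3 and 7 to 9 above it, while positions 2, 6 and 13 did not pass. In HOXD, positions 8 and 13 lie below 0 and position 9, which did not pass, above it.

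In the HOXC cluster (chromosome 12, 53938765 to 54056030, plus strand), 8 of 9 members were tested, 2 rose, 2 fell and 4 did not pass, and no change reached 2-fold. HOXC10, which marks lumbar levels and hindlimb, had the highest CPM of all members. It measured 56.5, 70.2, 60.4 and 59.3 CPM in vehicle and 90.004, 78.8, 86.1 and 77.6 CPM in miRNA libraries, without overlap, and rose 1.35-fold (log2 fold change 0.43, SE 0.091, edgeR adjusted p = 4.41e-05). HOXC11 and HOXC8 moved the other way. HOXC8, a thoracic-level gene, measured 17.99, 21.0, 16.6 and 15.1 CPM and then 9.41, 12.6, 7.23 and 10.9 CPM, 1.71-fold lower (adjusted p = 2.30e-04). HOXC11 measured 12.97, 17.3, 15.5 and 13.3 CPM and then 8.17, 10.6, 5.51 and 10.9 CPM, 1.66-fold lower (adjusted p = 0.00117). In neither gene did any miRNA library reach the vehicle range, and neither UTR holds a word of either microRNA.

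HOXC4 measured 34.7, 30.03, 31.4 and 27.9 CPM and then 42.1, 34.3, 37.9 and 40.6 CPM. Its groups overlapped in part, since miRNA replicate 2 was below vehicle replicate 1. HOXC4 rose 1.25-fold (edgeR adjusted p = 0.0141), a call lost without vehicle replicate 4 (adjusted p = 0.0503) or miRNA replicate 1 (0.0646). HOXC4, HOXC5 and HOXC6 share exons on the same strand, 17.8% of HOXC4 exon bases with HOXC6, so their separate values are uncertain. HOXC6, often raised in epithelial tumours, was at 58.9 ± 6.19 and 53.5 ± 6.11 CPM (SD, n = 4, adjusted p = 0.229). HOXC5 had 1 and 4 counts in all and was not tested.

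HOXC9, at 26.7 ± 3.67 and 30.8 ± 4.72 CPM (SD, n = 4), did not pass (log2 fold change 0.17, SE 0.13, edgeR adjusted p = 0.262) but passed as higher with library size as the only scaling (0.31, 0.0389). HOXC12 was at 8.91 ± 1.95 and 6.97 ± 0.887 CPM (adjusted p = 0.256). HOXC13, the hair and nail gene, was at 5.90 ± 1.22 and 5.86 ± 1.82 CPM (log2 fold change 0.018, SE 0.28). The UTR of HOXC12 holds the words of both microRNAs and that of HOXC13 the miR-449a word.

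In the HOXD cluster (chromosome 2, 176092891 to 176190907, plus strand), 3 of 8 members were tested, and 2 fell and none rose. None of these 3 was higher at an unadjusted p under 0.05 in edgeR, and DESeq2 and limma-voom also called 0 higher. HOXD13, the gene of digit and genital development at the 5′ end of the cluster, had the largest fall among the members. It measured 19.244, 16.3, 17.5 and 22.4 CPM in vehicle and 6.39, 6.65, 7.57 and 5.79 CPM in miRNA libraries, so every miRNA value was under every vehicle value. The level was 2.85-fold lower (log2 fold change -1.51, SE 0.20, edgeR adjusted p = 9.50e-10), and its UTR of 1208 bases holds neither word. HOXD8, with its 2 miR-340-5p words, measured 12.1, 10.9, 7.64 and 4.77 CPM and then 4.44, 5.63, 3.10 and 4.83 CPM. Vehicle replicate 4 fell within the miRNA range, and the level was 1.85-fold lower (SE 0.28 on the log2 scale, adjusted p = 0.00392).

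HOXD9 measured 3.35, 2.07, 2.92 and 3.27 CPM and then 3.73, 4.26, 3.44 and 7.40 CPM. No miRNA library fell into the vehicle range, yet the difference did not pass (log2 fold change 0.67, SE 0.34, edgeR adjusted p = 0.0774), and it passed with library size as the only scaling (0.81, 0.0338). Without miRNA replicate 4, the highest, it was 0.43 (adjusted p = 0.310). The other 5 were below the filter, with group totals of 5 and 19 counts for HOXD3, 3 and 16 for HOXD4, 9 and 13 for HOXD10, 17 and 6 for HOXD11 and 0 and 2 for HOXD1. HOXD4 was higher at an unadjusted p of 0.0236 (adjusted 0.0582) in edgeR without a count filter, and its counts came mostly from miRNA replicates 3 and 4, with 7 counts each. None of the 5 passed when tested without a count filter. HOXD13 supplied most HOXD counts in vehicle cells, and HOXD8 and HOXD13 were the HOXD members that fell.

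Read across clusters, genes of 1 paralog position did not always move the same way. At position 9 all 4 paralogs were tested and all 4 fold changes were above 0, with 2 passing (HOXA9 and HOXB9) and a median of 0.85. Those of HOXA7 and HOXB7 at position 7 were also above 0 (median 0.55), and only HOXB7 passed. HOXC12, the only member at position 12, did not pass. At position 8 HOXB8 rose while HOXC8 and HOXD8 fell. At position 5 HOXA5 rose and HOXB5 fell, at position 4 HOXC4 rose and HOXB4 fell, and at position 11 HOXA11 rose and HOXC11 fell. At position 13, 3 of 4 were tested, and HOXD13 fell while HOXB13 and HOXC13 did not pass. At position 10 HOXC10 rose and HOXA10 did not pass, and at position 6 neither HOXB6 nor HOXC6 passed. Of 12 tested members at positions 9 to 13, 4 rose and 2 fell (median 0.093), and of 11 at positions 4 to 8, 4 rose and 4 fell (median 0.058). HOXB2 and HOXB3 were the only tested members at positions 1 to 3. No difference between positions or clusters was tested.

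Sites for the microRNAs were set beside the changes. Of 8 tested members with at least 1 word, 1 rose (HOXA5), 2 fell (HOXB4 and HOXD8) and 5 did not pass (median log2 fold change -0.15). Of 17 without a word, 8 rose, 4 fell and 5 did not pass (median 0.24). Over all tested genes 33.4% rose and 34% fell, and both sets are small. The difference between these sets of genes was not tested. The largest fall, that of HOXD13, and the falls of HOXB5, HOXC8 and HOXC11 were in genes without a word. Only these words in 1 UTR per gene were searched, so a gene without a word may still hold another kind of site.

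Levels of different genes were compared per kb of GENCODE 29 exon length, with the caveat that these lengths count every annotated exon. In vehicle cells the order was led by HOXC10 at 26.4 ± 2.55 CPM per kb (SD, n = 4), followed by HOXB7 at 17.9 ± 1.48, HOXC6 at 16.6 ± 1.75, HOXC9 at 15.9 ± 2.18 and HOXA10 at 14.4 ± 1.70. The last 4 lay within their spread of their neighbours in the order, and HOXC10 stood above them. In miRNA cells HOXC10 was at 35.7 ± 2.54 CPM per kb and HOXB7 at 32.7 ± 2.12, both above HOXC9 at 18.4 ± 2.81 and HOXA9 at 15.5 ± 1.29. HOXB9 moved from place 21 to place 9 of 36 and HOXA9 from 11 to 4. HOXD13 moved from 9 to 17 and HOXC8 from 7 to 13. In both groups positions 1 to 3 were represented mainly by HOXB2 and HOXB3, at 5.64 ± 0.916 and 2.33 ± 0.270 CPM per kb in vehicle cells.

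Noncoding RNAs made within the HOX clusters were also listed. Of 27, 15 were in the table and 7 tested. Among the 7, 4 rose and none fell in edgeR, DESeq2 or limma-voom, with a median log2 fold change of 0.75, and 1 (HOXD-AS2) was lower at an unadjusted p under 0.05 in edgeR. The share called, 57.1%, was under the 67.3% of all tested genes (33.4% higher, 34% lower). HOXA11-AS, transcribed against HOXA11, measured 7.11, 3.62, 3.59 and 2.51 CPM in vehicle and 12.6, 17.4, 20.3 and 15.4 CPM in miRNA libraries. It rose 4.10-fold without overlap (edgeR adjusted p = 1.04e-10), beside 1.33-fold for HOXA11, whose exons it covers over 31.1% of their length. Whether the counting used strand is not given in the sources, so reads of the pair may be mixed. HOTAIR, a noncoding RNA of the HOXC cluster reported to act with polycomb, measured 6.28, 8.54, 6.51 and 10.6 CPM and then 15.6, 17.9, 9.98 and 11.6 CPM and rose 1.77-fold, with miRNA replicate 3 inside the vehicle range (adjusted p = 6.19e-04).

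HOXB-AS1 rose 1.69-fold (edgeR adjusted p = 0.00201) and HOXC-AS2 2.47-fold (adjusted p = 0.00207). HOXC-AS3, beside HOXC10, had a log2 fold change of 0.56 (SE 0.27) and did not pass (adjusted p = 0.0615), but passed as higher with upper-quartile scaling, library size alone or without miRNA replicate 1. In the HOXD cluster, where HOXD8 and HOXD13 fell, HOXD-AS2 had a log2 fold change of -0.66 (SE 0.32, adjusted p = 0.0675) and passed as lower without vehicle replicate 2 (-0.88, 0.0169). HAGLR, also of HOXD, had 7 counts in the vehicle and 0 in the miRNA libraries (a count of 0 allows up to 3), too few to test. The microRNA gene MIR10B, next to HOXD4, had 2 and 20 counts, which in libraries of polyadenylated RNA do not measure the mature microRNA.

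**Figure D4:**
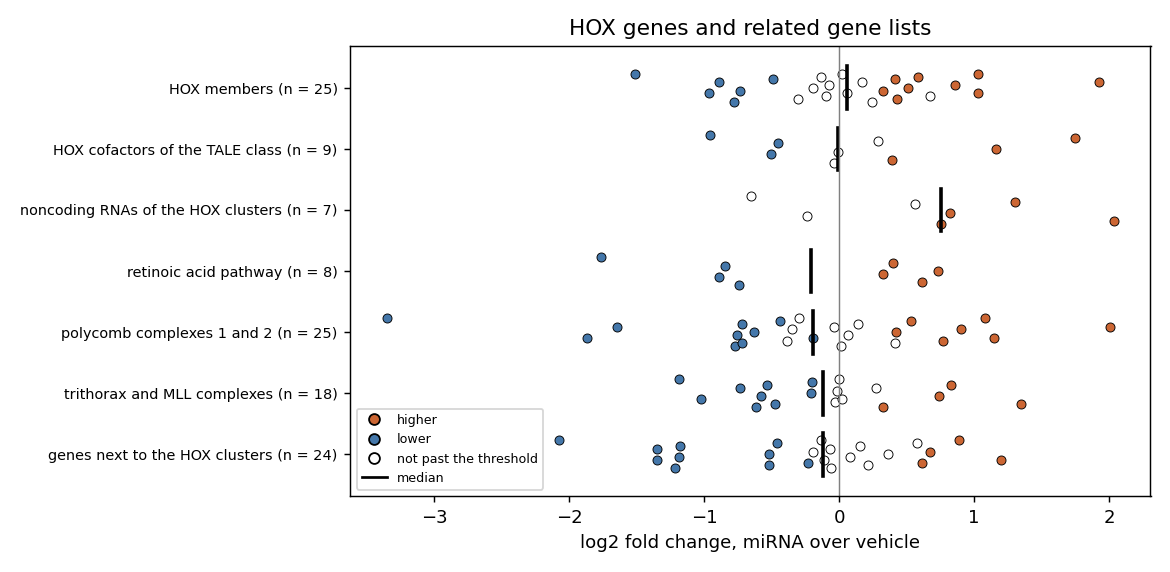
log2 fold change (miRNA over vehicle) of each tested gene in the HOX set and in 6 related lists. Points are genes, filled where the adjusted p was under 0.05, and black bars are medians; the noncoding RNAs of the clusters have a median of 0.75, and the HOX genes one of 0.058.

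The DNA-binding partners of HOX proteins also split. All 9 listed TALE genes were tested, and 3 rose, 3 fell and 3 did not pass (median -0.0091), which is 66.7% called against 67.3% of all tested genes. MEIS3 measured 3.77, 5.70, 4.04 and 4.77 CPM in vehicle and 18.8, 16.4, 16.9 and 9.01 CPM in miRNA libraries and rose 3.36-fold (edgeR adjusted p = 2.39e-09). PKNOX2 measured 42.7, 49.5, 50.8 and 40.9 CPM and then 19.3, 28.3, 26.5 and 21.2 CPM, 1.94-fold lower (adjusted p = 1.91e-09). Neither gene's groups overlapped. PBX4 rose 2.24-fold and MEIS2, the most abundant MEIS gene by count, 1.31-fold, while PKNOX1 fell 1.37-fold. PBX3, with the most counts of the list, measured 85.1 ± 8.92 and 83.0 ± 5.32 CPM (SD, n = 4) and did not pass (adjusted p = 0.719).

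Among chromatin regulators of HOX genes, 10 of 25 tested polycomb genes fell and 7 rose (median -0.19). PHF19, an accessory subunit of polycomb complex 2, fell 10.2-fold, the methyltransferase gene EZH2 3.12-fold and CBX2, a reader subunit of complex 1, 3.64-fold. EZH1, the paralog of EZH2, rose 2.12-fold and PHC3 2.21-fold. Of 18 tested trithorax and MLL genes, 9 fell and 4 rose (median -0.12). MLLT1 fell 2.28-fold, WDR5, a core subunit of MLL complexes, 2.03-fold and PSIP1, which tethers MLL to chromatin, 1.53-fold. KDM6B, a demethylase of the polycomb mark, rose 2.54-fold, KMT2C 1.78-fold and AFF4 1.67-fold. The shares called in both lists, 68.0% and 72.2%, were near the 67.3% of all tested genes.

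Of 20 listed genes of the retinoic acid pathway, 16 were in the table and 8 tested, and all 8 passed, 4 higher and 4 lower (median -0.21), where 67.3% of all tested genes passed. The receptor genes RARG and RXRA fell 3.39-fold and 1.86-fold, and RDH10, an enzyme of retinoic acid synthesis, fell 1.80-fold. CRABP2, which carries retinoic acid to its receptors, rose 1.66-fold, and the nuclear receptor genes NR2F1 and NR2F2 rose 1.53-fold and 1.25-fold.

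Genes that flank the clusters were listed for comparison, and of 24 tested, 10 fell and 4 rose (median -0.12), or 58.3% called against 67.3% of all tested genes (33.4% higher, 34% lower). With upper-quartile scaling 7 rose, and with library size as the only scaling 8 rose. TAX1BP1 rose 1.85-fold and UBE2Z 1.60-fold, and CBX5, ATP5G1, ATP5G3 and HNRNPA1 fell 2.55-fold, 2.54-fold, 2.32-fold and 2.26-fold. PRAC1 and PRAC2, which lie beside HOXB13, are named here after their values were seen. PRAC2 measured 7.53, 9.58, 8.76 and 6.78 CPM in vehicle and 1.78, 2.39, 1.03 and 2.25 CPM in miRNA libraries, 4.21-fold lower (edgeR adjusted p = 6.92e-08), and PRAC1 was 2.27-fold lower (adjusted p = 4.24e-04), while HOXB13 itself did not pass. Of 13 listed homeobox genes of the extended HOX and ParaHox groups, 3 were in the table and only GBX2 was tested, with a log2 fold change of 0.43 (SE 0.37, adjusted p = 0.301). It passed as higher without vehicle replicate 2 (1.06, 0.0233).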

How the data were processed

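Polyadenylated RNA was sequenced after stranded mRNA library preparation on a HiSeq4000, per the labels' protocols. The authors deposited whole-number counts per gene symbol. Per the submitters' processing notes, the tools were HTSeq 0.5.3p3, DESeq2, TopHat2 2.0.13 and SAMtools 0.1.19.24, on GRCh38, with no roles stated. Which annotation and strand setting served for counting is not given in the sources.

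Genes were kept by filterByExpr (minimum count 10, minimum total 15), which left 12366, scaled by TMM and tested across all of them with edgeR 4.0.16 in R 4.3.3 (two-sided quasi-likelihood test with robust dispersion and a group term, Benjamini-Hochberg, threshold 0.05). SE was taken as the absolute log2 fold change divided by the root of F. CPM use effective library sizes. Replicate pairs differed by a chi-square of 2.21 to 5.89 per gene, so none was taken as a copy and each library counts once. This check does not show whether the libraries stem from different cultures. On simulated counts (12363 genes), the test called 37 of 67 genes set to differ 1.5-fold, 59 of 67 at 2-fold, 62 of 66 at 4-fold, and 10 of 12163 left equal. The simulation changed far fewer genes than passed in the data and gave every gene the same dispersion, so its rates need not hold for the data. Symbols were matched to GENCODE 29 (GRCh38) for positions, exon lengths and UTRs. All 36 members are accounted for; of each list up to 6 tested genes with the smallest adjusted p and a mean of at least 1 CPM are named, and MYOD1, MYOG and DES always. Some genes that this rule names are not reported here. The members and lists were chosen with earlier results of these data known. Alternatives were DESeq2 1.42.0, limma-voom (limma 3.58.1), other scalings, filters and thresholds, a replicate block, removal of mitochondrially encoded genes, leaving out each library and 8-base words. Those for cluster sums were added after the data were seen.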

Additional observations from a re-analysis of the deposited data

Results flagged for a closer look

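In 60 groups of 4 libraries (25 members and 5 sums, in each condition), 2 held a library far from the other 3, where chance gives about 1 in 20. HOXB8 was at 6.69 CPM in vehicle replicate 1, against 11.9 to 12.9 CPM in the other vehicle libraries. Without that library HOXB8 still rose (log2 fold change 0.45, edgeR adjusted p = 0.0329). HOXB9 was at 18.7 CPM in miRNA replicate 4, against 24.3 to 25.5 CPM in the other miRNA libraries. Without it the log2 fold change of HOXB9 was 2.01 (adjusted p = 1.00e-13). The cause was not tested in either case.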

How the results depend on the processing

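Of 425 results of tested members under 17 alternatives, 417 kept their direction and side of the threshold or, for members that did not pass, stayed short of it. The 8 others are given in the results: HOXA5, HOXA11 and HOXC4 lost their calls, and HOXA10, without vehicle replicate 3, HOXC9 and HOXD9, with library size alone, gained one. The count of members that rose was 7 to 9 with a library left out and 11 with library size alone, and the count that fell was 6 or 7 throughout. Library size as the only scaling moved the median of all tested genes to 0.14 and that of the HOX members from 0.058 to 0.19. Summed levels (log2 ratio) went from 0.38 to 0.51 for HOXB, 0.079 to 0.22 for HOXC and 0.17 to 0.31 for all members. Those of HOXA went from 0.28 to 0.42 and those of HOXD from -0.77 to -0.63, within their wider spread between libraries (0.17 and 0.23). This scaling split the calls over all genes into 4890 higher and 3453 lower, against 4125 and 4199. With 8-base words (the 7-base word followed by A), members with a site numbered 1 in place of 4 for miR-449a and 2 in place of 7 for miR-340-5p. With the replicate block, 9 members rose and 6 fell, and no member changed its call. Deviations of same-numbered libraries from their group means correlated weakly, with all values above 0 (0.013 to 0.056), against -0.033 to 0.015 for the other pairs. Of the 4 vehicle libraries, 3 correlated best with their own number. Depth limits the 11 members below the filter, none with more than 15 counts in a library. Some of them also share exons with another annotated gene on the same strand, so reads may be split or dropped in counting. Such a gene covers 80.5% of the exon bases of HOXD4, 62.2% of HOXD3, 33.9% of HOXC5 and 31.0% of HOXA4. The effect of this sharing on their counts was not tested.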
